A study of Drosophila melanogaster with 48 samples.

Results

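The translation initiation factors and elongation factors of Drosophila melanogaster were followed as transcripts in single embryos before and after the zygotic genome takes over. They were taken as all protein-coding genes whose symbol in the BDGP6.54 annotation begins with eIF (initiation) or eEF (elongation), which gave 52 genes, all of them among the 17481 genes of the count table. The rule used names only and no measured value. Of the 52, 43 were treated as general factors, and 9 duplicate genes listed by symbol as germline or testis paralogs (eIF4E3, eIF4E4, eIF4E5, eIF4E6, eIF4E7, eIF4G2, eIF3d2, eIF3f2 and eIF3g2) were kept apart. This listing is background, since the annotation used does not give where a gene is used. The genes are spread over the genome, with 15 on chromosome arm 3R, 13 on 2R, 11 on 3L, 7 on X, 5 on 2L and 1 on chromosome 4.

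RNA was sequenced from 48 embryos, 3 for each of 8 lines at each of 2 stages. Stage 2 is the earliest cleavage period, when the RNA is maternal, and late stage 5 is the cellular blastoderm just ahead of gastrulation, when zygotic transcription is under way. The 4 Raleigh lines (RAL307, RAL357, RAL360 and RAL517, from North Carolina in the United States) and the 4 Zambia lines (ZI050, ZI094, ZI160 and ZI470, from Siavonga) were inbred lines that each began from a wild female, so a line stands for a sample of its population and not for the population. The number of generations of inbreeding that the paper gives for the Raleigh lines is larger than the minimum it gives for the Zambia lines. Degree of inbreeding and population therefore cannot be told apart, neither between the populations nor in the spread among their lines. All flies were kept on cornmeal food at 25 degrees and 60% humidity with mothers of 3 to 10 days of age, the sex of stage 2 embryos was not known, and only XY embryos were used at stage 5.

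Translation begins when eIF2 brings the initiator tRNA to the small ribosomal subunit, helped by eIF1, eIF1A and the large scaffold eIF3, while eIF4E, eIF4G and eIF4A attach the mRNA by its 5′ cap. After the start codon is found, eIF5 and eIF5B release the initiation factors and join the large subunit, and eIF2B recharges eIF2 with GTP. Elongation is then carried by eEF1, which delivers tRNAs, and eEF2, which moves the ribosome. In the early fly embryo these proteins work on mRNA that the mother laid down, and cap binding is among the steps at which its use is set.

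Total counts ran from 25.1 to 30.3 M (M, megacounts) per embryo at stage 2 (median 29.2 M) and from 0.341 to 30.8 M at stage 5 (median 27.9 M). RAL360 replicate 3 of stage 5 holds the lowest total, where 3 counts stand for 8.78 CPM (counts per megacount, with each embryo's total adjusted by its TMM factor, as for all CPM here, so that CPM differ from plain shares of counts), against a median of 0.119 CPM over the stage 5 embryos. The stage labels fitted their markers. Maternal germline RNA (osk, bcd, pgc and gcl) summed to between 1769 and 2079 CPM over the lines in early embryos and 48.1 to 74.96 CPM in late ones. Patterning RNA (ftz, eve, sna, twi and zen) summed to 1.38 to 3.95 CPM and then 1031 to 1330 CPM. Follicle cell, yolk protein and testis markers each summed to at most 1.98 CPM in any line. The genes cup and Sry-alpha, whose exons lie 100% within exons of other genes on the same strand, are at 0 in every library, so values of overlapping genes are uncertain. Among the factors the overlap is largest for eIF5, with 80.8% of its exon length shared with CG46312, followed by eIF2gamma with 15.98% shared with Su(var)3-9, eIF4G2 with 8.56% and eIF4EHP with 6.96%. The levels of these genes may be too low for this reason, which was not tested.

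The factors together took 2.81% of all counts at stage 2 (median of 24 embryos, range 2.63 to 3.06%) and 4.70% at stage 5 (4.31 to 5.05%). No embryo of stage 5 fell into the range of stage 2. Elongation factors held 61.1% of the factors' own counts at stage 2 and 68.3% at stage 5 (medians), and eEF1alpha1 alone held 33.8% and then 36.6%. The share of the eIF2B subunits fell from 0.958% to 0.229%, and that of the eIF4 group from 14.9% to 11.2%. In bulk RNA of a whole embryo, fewer cells that carry a transcript and less of it per cell cannot be told apart, and all values are relative to the other RNA of the embryo.

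Levels can be compared between genes only per length, so counts were divided by the merged exon length of each gene and scaled to the same sum in every embryo (a TPM-like level). On this scale eEF1alpha1, the carrier of aminoacyl tRNA, stood highest at both stages, with 9158 ± 594 at stage 2 and 14048 ± 798 at stage 5 (mean ± SD of 8 lines). eEF2 was next with 3554 ± 205 and 6103 ± 284, followed by eEF5, the fly eIF5A, which eases peptide bonds at proline stretches. The order of the 5 highest factors (eEF1alpha1, eEF2, eEF5, eEF1gamma and eEF1beta) was the same at both stages. With the longest transcript as length eIF4A passed eEF1beta at both stages. Below the 6 highest the order changed, and eIF4E1, the general cap-binding protein, went from rank 7 among the 52 factors at stage 2 to rank 29 at stage 5.

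**Figure D1:**
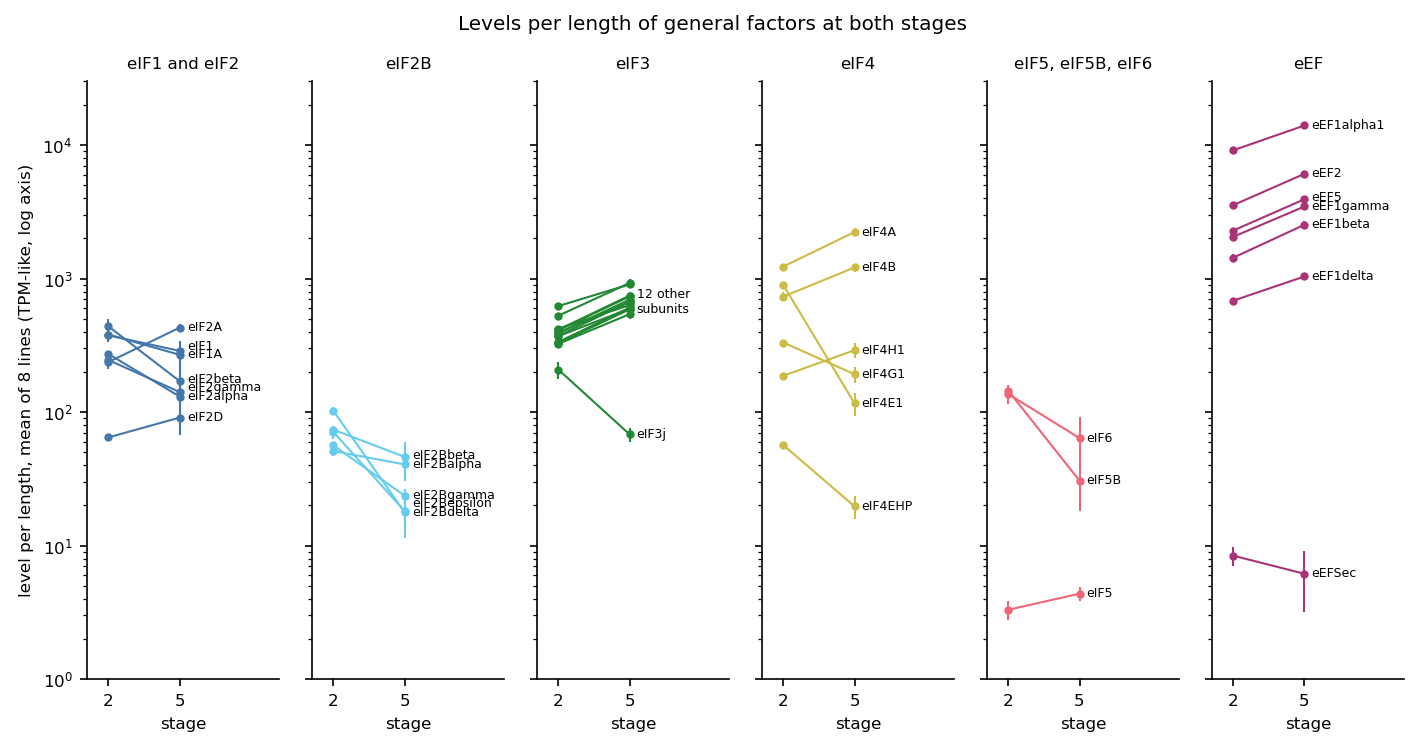
Levels per length of the general factors at stage 2 and stage 5, one panel per group of factors. Points are means of the 8 lines on a TPM-like scale (log axis), bars are the SD of the lines, and genes under 1 at either stage (eEF1alpha2 and eIF4H2) are not drawn. The genes of the eEF and eIF3 panels rise except eEFSec and eIF3j, eIF4E1 goes from 897 to 116. On this scale the means of eIF1 (376 and then 288), eIF2Balpha (51.1 and then 40.6) and eEFSec (8.41 and then 6.15) are lower at stage 5. The stage test on CPM called none of them.

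Between the stages 45 of the 52 factors passed the filter on low counts and were tested, and 42 of them differed at an adjusted p under 0.01 (edgeR quasi-likelihood test over all genes, 16 groups of line and stage). This is close to the whole table, in which 92.1% of 10193 genes tested were called, 54.6% of all as higher and 37.4% as lower at stage 5. Of the 45 factors 27 were higher at stage 5 and 15 lower, while eIF1, eIF2Balpha and eEFSec were not called. These 3 depend on the processing, since eIF1 and eIF2Balpha were called higher with DESeq2, with its size factors (0.23 each in log2) and with the stricter filter, and eEFSec was called lower with the replicate block and at a threshold of 0.05. The line means of the 2 stages did not overlap in 37 of the 45, against 67.5% of all genes tested. The median log2 change was 1.06 over the factors and 0.62 over all genes (quartiles −1.04 and 3.60). That median of all genes depends on the scaling and was 0.78 with DESeq2's size factors, so the changes of some factors are also given relative to it. All 27 factors called higher lay above the median of all genes, and 18 of the 45 lay below it.

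**Figure D2:**
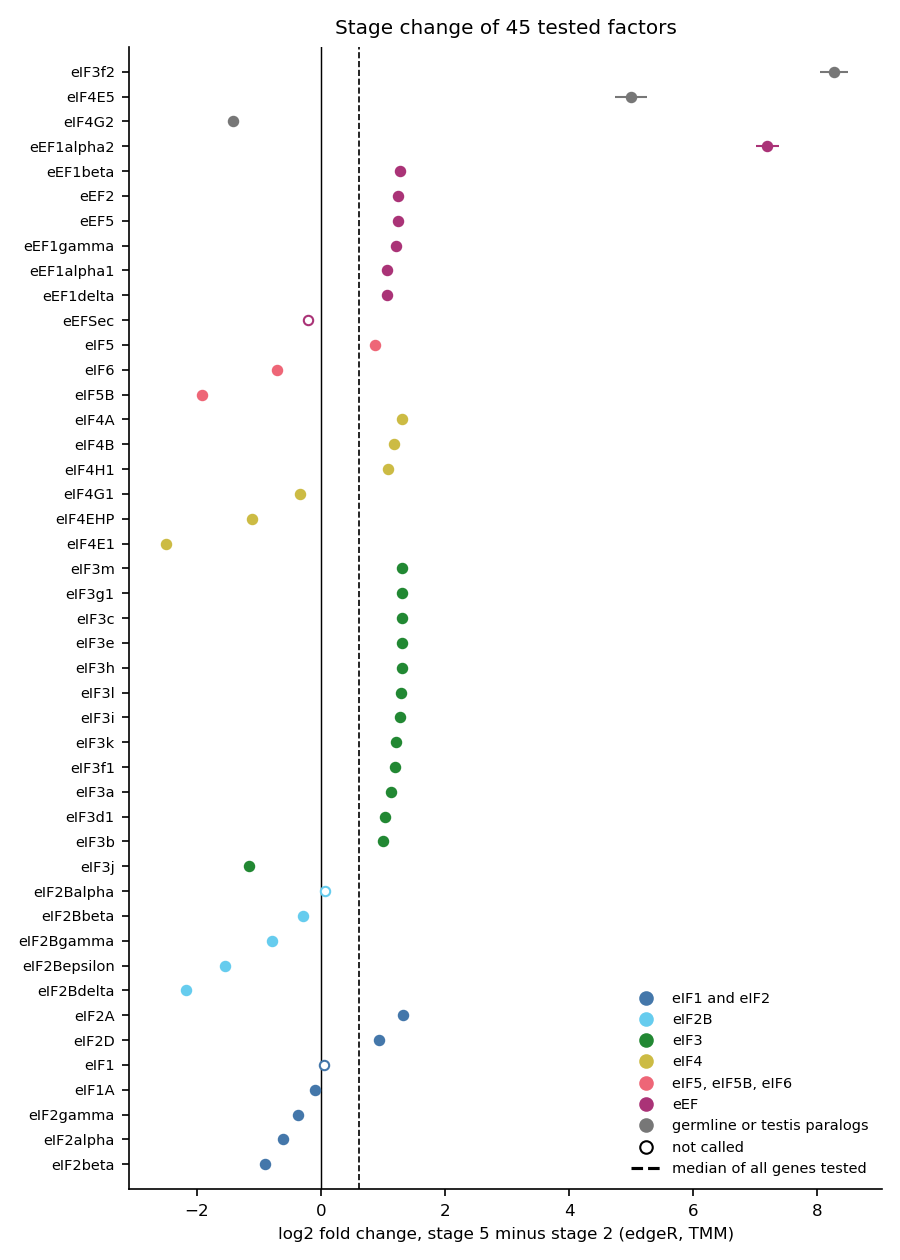
Log2 fold change from stage 2 to stage 5 of the 45 tested factors, grouped by role. Points are edgeR estimates with TMM scaling, bars their standard errors, open points are not called, and the dashed line marks the median of all genes tested at 0.62. The eIF3 subunits and the eEF genes line up between 0.99 and 1.31 except for eIF3j, eEFSec and eEF1alpha2.

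The general elongation factors rose together. eEF1alpha1 had 7880 CPM in its lowest, 8719.5 in its median and 9823 in its highest embryo at stage 2. The same values at stage 5 were 15119.6, 18785 and 21912.5 CPM, so that all stage 5 embryos lay above all stage 2 embryos. Its log2 change was 1.07 ± 0.02 (SE, adjusted p 2.00e-33 by edgeR), or 0.45 above the median of all genes. eEF2, the translocase, rose by 1.23 ± 0.03 on the log2 scale, from line means of 4221 ± 239 to 9931 ± 540 CPM (SD of 8 lines). eEF5 rose by 1.23 ± 0.02 in log2, from 719 ± 39.8 to 1696 ± 159.5 CPM. The 3 other subunits of eEF1, eEF1beta, eEF1gamma and eEF1delta, which reload eEF1alpha with GTP, rose by 1.28, 1.21 and 1.06. Over the 6 genes the median log2 ratio of the line means lay between 1.11 and 1.299 in each of the 8 lines. Ratios per length within the group moved little, with 2.58 ± 0.10 eEF1alpha1 per eEF2 at stage 2 and 2.31 ± 0.19 at stage 5 (SD of 8 lines).

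The other 2 eEF genes did not follow. eEF1alpha2, a second eEF1alpha gene, had at most 7 counts in any stage 2 embryo (61 in all 24) and 5.72, 11.2 and 19.2 CPM in its lowest, median and highest stage 5 embryo. It was called higher with a fitted log2 change of 7.19 ± 0.19, a value that depends on how near 0 its stage 2 counts are. Even at stage 5 its level per length of 8.22 was far under the 14048 of eEF1alpha1. eEFSec, which brings the tRNA of selenocysteine, had 5.26 ± 0.81 CPM at stage 2 and 5.15 ± 2.25 at stage 5 and was not called (log2 change −0.20 ± 0.09, adjusted p 0.0334, edgeR).

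The eIF3 complex, the scaffold that holds the initiation factors on the small subunit, has 13 general subunit genes here. Of these, 12 rose by 0.99 (eIF3b) to 1.31 (eIF3m) on the log2 scale, with a median of 1.28. In each single line all 12 were higher at stage 5, and the median over them lay between 1.17 and 1.33. eIF3m, among the 4 general factors called with the highest change, had 184, 205 and 238 CPM in its lowest, median and highest embryo at stage 2. At stage 5 it had 415, 503 and 577 CPM, with no overlap between the stages. The 12 levels per length were also near each other, from 325 (eIF3f1) to 624 (eIF3b) at stage 2 and from 542 (eIF3f1) to 929 (eIF3i) at stage 5, a ratio of highest to lowest of 1.92 and 1.71. eIF3h shares 16.8% of its exon length with a gene on the opposite strand, and how strand was treated in the counting is not given in the sources used here.

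eIF3j, the loosely bound subunit that helps to open and to recycle the small ribosomal subunit, went the other way. It had 67.1, 113 and 137 CPM in its lowest, median and highest embryo at stage 2 and 37.7, 49.5 and 58.3 CPM later. Its log2 change was −1.16 ± 0.05 (adjusted p 1.91e-24, edgeR), which is −1.77 relative to the median of all genes, and it was lower in all 8 lines. Per length there were 3.06 ± 0.52 eIF3b for each eIF3j at stage 2 and 13.5 ± 2.25 at stage 5.

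**Figure D3:**
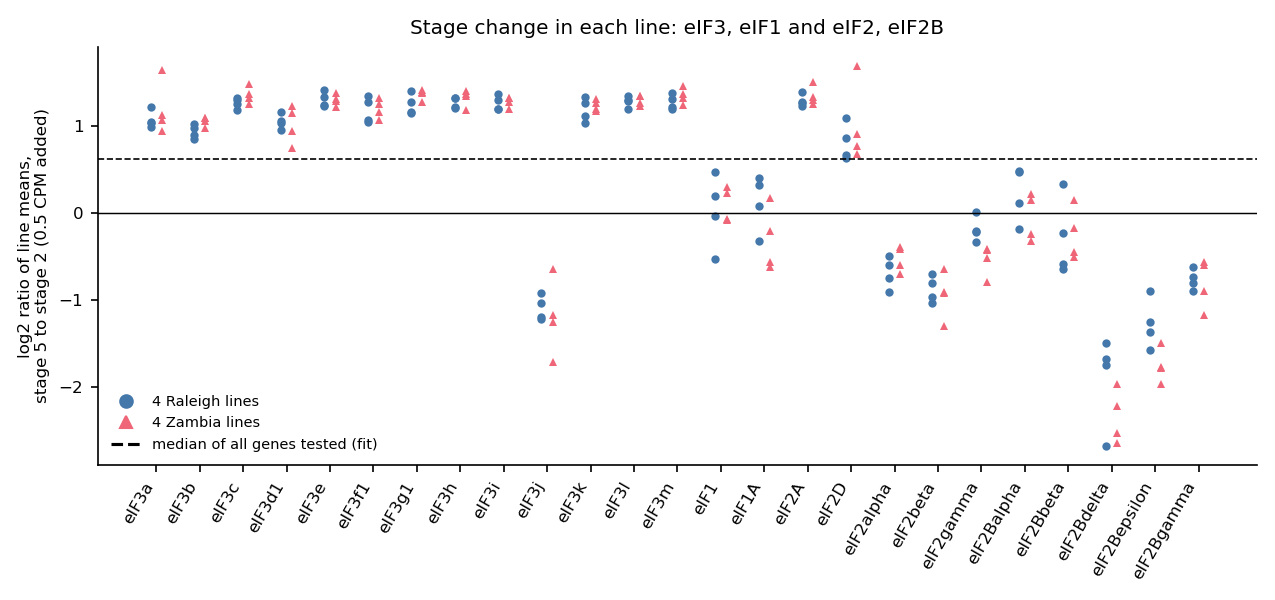
Log2 ratio of the stage 5 to the stage 2 line mean (0.5 CPM added) for each subunit of eIF3, for eIF1 and the eIF2 genes and for eIF2B, with 1 point per line. Circles are the 4 Raleigh lines, triangles the 4 Zambia lines, and the dashed line is the median of all genes in the fit, 0.62. All 8 lines lie above 0.74 for 12 eIF3 subunits and at or under −0.65 for eIF3j.

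The factors that bring the initiator tRNA fell or stayed. The 3 subunits of eIF2 were all lower at stage 5, with log2 changes of −0.61 for eIF2alpha, −0.90 for eIF2beta and −0.36 for eIF2gamma. eIF2alpha, whose phosphorylation turns initiation down under stress, had 147, 161 and 179 CPM in its lowest, median and highest embryo at stage 2 and 77.5, 105 and 137 CPM later. The stages did not overlap in this gene, and all 8 lines were lower (adjusted p 3.53e-23, edgeR). For eIF2gamma 1 line, RAL357, was not lower, with 210.5 CPM at stage 2 and 212 at stage 5. Per length there were 0.961 ± 0.154 eIF3c for each eIF2beta at stage 2 and 4.48 ± 0.67 at stage 5 (SD of 8 lines).

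eIF2A and eIF2D, which in mammals can place tRNA on the ribosome without eIF2, rose instead. eIF2A had 197, 266 and 306 CPM in its lowest, median and highest embryo at stage 2 and 546, 643 and 812 CPM at stage 5, a log2 change of 1.32 ± 0.03 (adjusted p 1.83e-32, edgeR). Among general factors other than eEF1alpha2 this was the highest estimate, with those of eIF3m and eIF4A (1.31 each) within its standard error. eIF2D rose by 0.93 ± 0.04 on the log2 scale, and the log2 ratio of its line means ranged from 0.63 in RAL360 to 1.69 in ZI160. eIF1, which guards start codon choice, was not called, with 99.5 ± 11.9 CPM at stage 2 and 105 ± 22.0 at stage 5. eIF1A, its partner in scanning, was called lower by a small amount (−0.09 ± 0.03), and 4 of 8 lines were higher. That direction turned with DESeq2's size factors (0.08, adjusted p 0.00903, edgeR), with DESeq2 (0.08) and with a stricter filter (0.00365, not called). On the TPM-like scale both genes were lower at stage 5, with eIF1 at 376 and then 288 and eIF1A at 381 and then 269 (means of 8 lines).

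Of the 5 subunits of eIF2B, the exchange factor of eIF2, 4 were lower at stage 5 and eIF2Balpha was not called. The largest falls were those of eIF2Bdelta and eIF2Bepsilon. eIF2Bdelta had 69.4, 87.9 and 106 CPM in its lowest, median and highest embryo at stage 2 and 11.5, 18.1 and 31.1 CPM at stage 5, a log2 change of −2.17 ± 0.05 (adjusted p 3.04e-31, edgeR). eIF2Bepsilon, the catalytic subunit, had 53.2, 66.7 and 83.5 CPM and then 16.3, 22.8 and 38.0 CPM, a change of −1.54 ± 0.04 (adjusted p 5.26e-32). In both genes the highest stage 5 embryo lay under the lowest stage 2 embryo. eIF2Bgamma fell by 0.79 and eIF2Bbeta by 0.29 on the log2 scale, the latter lower in 6 of 8 lines, and eIF2Balpha kept 20.0 ± 1.69 CPM at stage 2 and 21.5 ± 4.93 at stage 5. The log2 changes of this complex thus ran from −2.17 to 0.06, while those of the 12 eIF3 subunits that rose ran from 0.99 to 1.31.

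The cap-binding group split by role. eIF4A, the helicase that opens the 5′ end, had 1037, 1202 and 1316 CPM in its lowest, median and highest embryo at stage 2 and 2262, 2950.5 and 3313 CPM at stage 5. It rose by 1.31 ± 0.03 in log2 (adjusted p 1.02e-34, edgeR), and its helpers eIF4B and eIF4H1 rose by 1.18 and 1.081. eIF4E1 had 684, 785 and 905 CPM in its lowest, median and highest embryo at stage 2 and 58.5, 132 and 195 CPM at stage 5, so the highest stage 5 embryo was still far below the lowest of stage 2. Its log2 change of −2.50 ± 0.04 (5.65-fold lower, adjusted p 2.64e-39, edgeR) was the largest fall among the 45 factors tested and was −3.12 relative to the median of all genes. It ranged from −2.93 in RAL360 to −2.03 in ZI160. The lowest embryo, at 58.5 CPM, is the shallow RAL360 replicate 3, and without this library and ZI470 replicate 1 of stage 2 the change was −2.49.

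eIF4G1, the scaffold between the cap and the ribosome, fell little, from 848 ± 42.2 to 671 ± 83.2 CPM (SD of 8 lines, log2 change −0.34 ± 0.04). It was lower in all 8 lines, though the line means of the stages overlap. eIF4EHP, which holds the cap without binding eIF4G and represses caudal and hunchback mRNA in the fly embryo, fell by 1.11 ± 0.04 in log2. It had 131, 141 and 153 CPM in its lowest, median and highest embryo at stage 2 and 45.2, 68.4 and 92.4 CPM at stage 5. Per length there were 15.9 ± 0.94 eIF4E1 for each eIF4EHP at stage 2 and 6.21 ± 2.15 at stage 5. Over the same time eIF4A went from 1.38 ± 0.09 to 19.9 ± 3.95 for each eIF4E1, and eIF4E1 from 2.71 ± 0.24 to 0.623 ± 0.173 for each eIF4G1, so the order of cap-binding protein and scaffold was turned in all 8 lines. eIF4H2 had at most 11 counts in any embryo and was not tested.

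**Figure D4:**
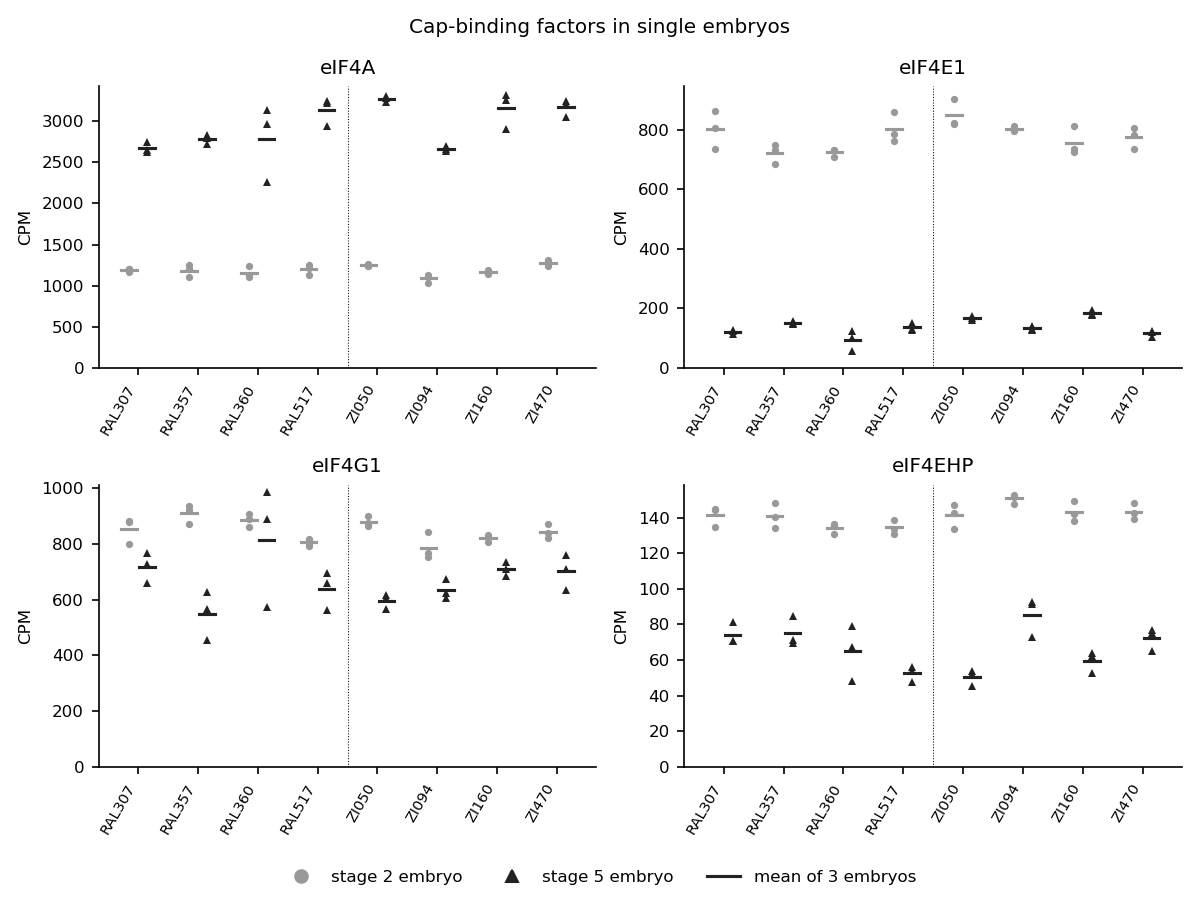
CPM of eIF4A, eIF4E1, eIF4G1 and eIF4EHP in each of the 48 embryos by line, with Raleigh lines left and Zambia lines right of the dotted line. Circles are stage 2 and triangles stage 5 embryos, and short bars are means of 3 embryos. eIF4A rises and eIF4E1 and eIF4EHP fall in every line, and eIF4G1 falls little.

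In the group of eIF5, eIF5B and eIF6, formed by symbol, eIF5B and eIF6 fell. eIF5B, the GTPase that joins the subunits, had 211, 250.3 and 276 CPM in its lowest, median and highest embryo at stage 2 and 30.9, 78.2 and 111 CPM at stage 5. Its log2 change was −1.92 ± 0.03 (adjusted p 1.57e-36, edgeR), and it was lower in all 8 lines. eIF6, which keeps large subunits apart from small ones, fell by 0.70 ± 0.04 in log2 over all lines, but not in each of them. It was lower in 6 of 8 lines, by up to 1.73 in RAL360, and higher in ZI094 (by 0.29) and ZI160. eIF5 was counted at 4.11 ± 0.65 CPM at stage 2 and 7.45 ± 0.70 at stage 5 (log2 change 0.87), and 80.8% of its exon length is shared with CG46312, whose part in this value was not tested.

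Of the 9 germline or testis paralogs only eIF4G2 was abundant. This gene, a second eIF4G known for its part in spermatocytes, had 433, 525 and 626 CPM in its lowest, median and highest embryo at stage 2 and 140.02, 200.03 and 258 CPM at stage 5. Its log2 change was −1.42 ± 0.03 (adjusted p 2.42e-33, edgeR), larger than that of eIF4G1, and per length there were 2.23 ± 0.24 eIF4G1 for each eIF4G2 at stage 2 and 4.65 ± 0.40 at stage 5. eIF3f2, a copy of the eIF3f subunit gene, had 12 counts in all stage 2 embryos together, in 9 of 24 embryos, and at stage 5 had 2.43, 4.62 and 8.90 CPM in its lowest, median and highest embryo. eIF4E5 had 41 counts at stage 2, in 16 of 24 embryos, and at stage 5 a median of 1.27 CPM and a highest value of 3.58 CPM, with no count in the shallow RAL360 replicate 3. Both were called higher, but their fitted changes (8.26 and 4.99) depend on how near 0 the stage 2 counts are.

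The other 6 paralogs were at or near 0. eIF3d2, eIF3g2 and eIF4E4 had no count in any of the 48 embryos, and their exons overlap no other annotated gene in position. Likeness in sequence to the general copies was not examined. A count of 0 allows up to 3 counts, or 0.0949 CPM in the median stage 2 embryo and 0.119 CPM in the median stage 5 embryo. eIF4E3 had no count at stage 2 and 31 counts at stage 5, in 13 of 24 embryos. eIF4E6 had 20 and then 49 counts and eIF4E7 22 and then 16 counts over 24 embryos each, with at most 8 in any embryo.

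Genes around these factors moved in both directions as well. Of 25 listed regulators and partners that could be matched, 24 were tested, with a median log2 change of −0.27. At stage 5, 10 of these were called higher and 12 lower, against 54.6% and 37.4% of all genes tested. Among those that bind eIF4E or repress mRNA, mxt fell by 3.99, tral by 1.41, 4E-T by 1.38 and me31B by 0.83 on the log2 scale. Thor, the fly 4E-BP, which blocks eIF4E1 when it is not phosphorylated, was not called, with 7.36 ± 0.94 CPM at stage 2 and 9.30 ± 6.75 at stage 5. Its stage change was called between the populations (interaction adjusted p 0.00154, edgeR), but not with counts summed per line (adjusted p 0.560, edgeR). The mean log2 ratio was −0.60 ± 0.49 in Raleigh and 0.70 ± 0.95 in Zambia (SD of 4 lines). The lines ran from −1.33 to −0.23 in Raleigh and from −0.22 to 1.54 in Zambia. In ZI094 at stage 5 the embryos ran from 4.12 to 41.4 CPM for Thor. The interaction test called 2 of the 24 genes as higher (Thor and PEK) and 3 as lower (mxt, Paip2 and Dph5) in Zambia, against 18.1% of all genes called. PEK had a mean log2 ratio of −2.26 ± 0.29 in Raleigh and −1.37 ± 0.35 in Zambia, and the lines did not overlap (adjusted p 0.000172, edgeR). With counts summed per line PEK was not called (adjusted p 0.225, edgeR). For mxt, Paip2 and Dph5 the lines of the populations overlapped. The eIF2alpha kinases Gcn2 and PEK fell by 1.56 and 1.83, while crc, the fly ATF4, rose by 1.298. The poly(A) binding protein pAbp rose by 0.89 and its antagonist Paip2 fell by 0.81. Of the release factors eRF1 rose by 0.50 and eRF3 fell by 1.31. Dhps, which begins the hypusine change of eEF5, rose by 1.51 and nero, which completes it, fell by 0.99. Dph2, of the diphthamide pathway that modifies eEF2, rose by 2.36, and Dph5 of the same pathway fell by 1.07. cup, which also binds eIF4E1, was at 0 in all libraries, and the part of its exon overlap in this was not tested.

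The question of differences between the populations was put to each stage on its own, taking all embryos from a population as its replicates. In stage 2 embryos 3 of 42 tested factors were called, all of them higher in Zambia. Among all 7566 genes tested 6.75% were called, 2.89% as higher and 3.86% as lower in Zambia. eIF2Bepsilon had 53.2, 61.2 and 70.2 CPM in its lowest, median and highest Raleigh embryo and 62.9, 73.3 and 83.5 CPM in Zambia. The embryos overlap, but the line means did not, with 56.3 to 66.2 CPM in Raleigh and 68.4 to 79.5 in Zambia (log2 difference 0.27 ± 0.05, adjusted p 0.000618, edgeR). eIF3b had line means of 612 to 644 CPM in Raleigh and 667 to 692 CPM in Zambia (0.14 ± 0.03 in log2, adjusted p 0.000782). eIF4G2 was higher by 0.20 ± 0.05 (adjusted p 0.00883), with overlapping line means, and its call was lost in 19 of 24 fits that left out 1 embryo. For eIF2Bepsilon and eIF3b an exact permutation of the 8 line means gave p = 0.0286, the smallest it can give. Any gene whose line means do not overlap gets this unadjusted value, so it adds nothing to the lack of overlap. eEF1alpha1, which was not called, has the same value. With counts summed per line edgeR called 0 of 7566 genes, of which 849 had an unadjusted p under 0.05 (adjusted p 0.275 for eIF2Bepsilon), so the calls rest on embryos of a line being taken as replicates of its population. The line means did not overlap in 4 of 42 factors, against 5.95% of all genes, the others being eEF1alpha1 and eEF5.

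In stage 5 embryos 8 of 45 tested factors differed between the populations, while 13.3% of 10000 genes were called, 6.01% as higher and 7.25% as lower in Zambia. Higher in Zambia were eIF6, eEF1alpha1, eIF3b and eIF4H1, and lower were eIF5B, eEF1alpha2, eEFSec and eIF2Bdelta. eIF6 had 14.6, 24.7 and 30.2 CPM in its lowest, median and highest Raleigh embryo and 30.1, 48.8 and 67.4 CPM in Zambia, where only the highest Raleigh embryo passed the lowest of Zambia. The line means were 21.4 to 26.2 CPM in Raleigh and 31.4 to 62.1 in Zambia, a log2 difference of 0.93 ± 0.13 (adjusted p 3.29e-05, edgeR). eIF5B had 74.3, 93.3 and 111 CPM in Raleigh embryos and 30.9, 42.4 and 81.9 CPM in Zambia, a difference of −0.89 ± 0.15 (adjusted p 0.000143). Its Zambia values divide by line, with 77.8 CPM in ZI094 and 35.6 to 46.2 CPM in the 3 others. eEF1alpha1 had line means of 15827 to 17337 CPM in Raleigh and 18937 to 20865 CPM in Zambia (0.26 ± 0.04, adjusted p 5.53e-05). eIF3b, higher at stage 2 too, had 1101 to 1238 CPM in Raleigh and 1312 to 1466 CPM in Zambia (0.24 ± 0.05, adjusted p 0.000581).

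The 4 other calls at stage 5 were eIF4H1 (log2 difference 0.28), eEF1alpha2 (−0.61), eEFSec (−0.92) and eIF2Bdelta (−0.59), with adjusted p of 0.00353 to 0.0062 (edgeR). The call of eIF4H1 held in 16 and that of eEF1alpha2 in 22 of 24 fits that left out 1 embryo. Line means did not overlap in 7 of the 45 factors, against 7.37% of all genes. For eIF6, eIF5B, eEF1alpha1 and eIF3b the exact permutation p over 8 lines was 0.0286, a value that lack of overlap alone fixes. With counts summed per line 1 of 10000 genes and none of the 8 was called (adjusted p 0.175 for eIF6, 0.231 for eIF5B, edgeR). RNA of slam, a gene needed for the membranes of cellularization, moved with the populations at this stage. Its line means were 151 to 331 CPM in Raleigh and 492 to 706 CPM in Zambia, while at stage 2 they were 200 to 253 and 196 to 226 CPM. Of the 3 other markers of the same list bnk overlapped (12.3 to 21.4 and 9.62 to 33.8 CPM), nullo was at most 4.26 CPM in any line and Sry-alpha was at 0. Patterning RNA summed to 1031 to 1236 CPM in Raleigh lines and 1298 to 1330 CPM in Zambia lines. Whether the embryos of the populations differed in age within stage 5, and its part in these results, was not tested.

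**Figure D5:**
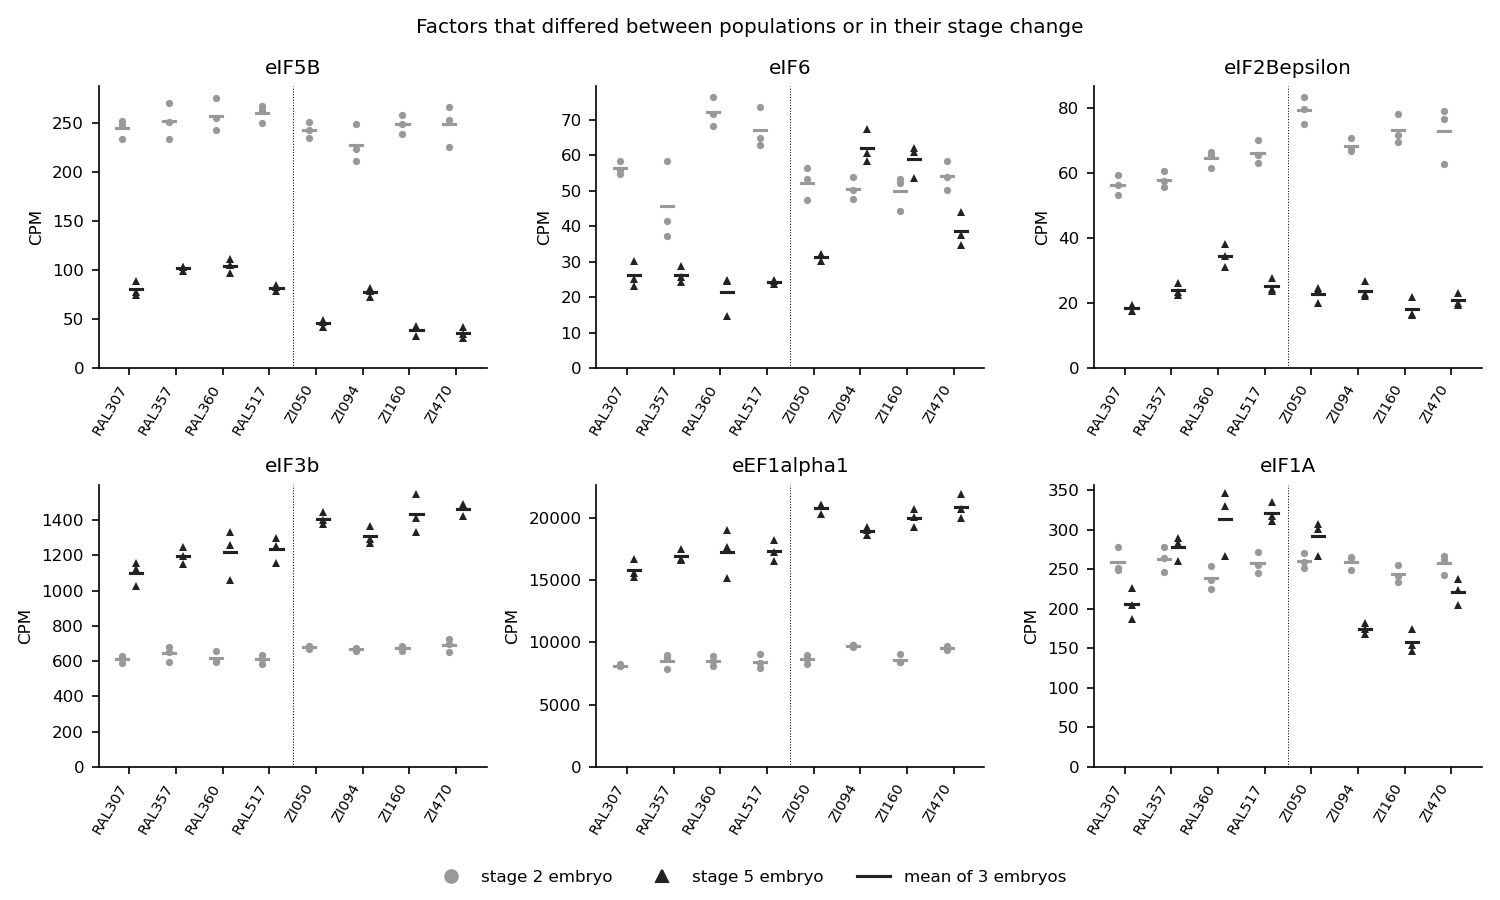
CPM of 6 factors in each of the 48 embryos by line, with Raleigh lines left and Zambia lines right of the dotted line. Circles are stage 2 and triangles stage 5 embryos, and short bars are means of 3 embryos. At stage 5 eIF6, eIF3b and eEF1alpha1 line means are higher and eIF5B line means lower in all 4 Zambia lines than in any Raleigh line.

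The change between the stages itself differed between the populations in 8 of 45 factors, where 18.1% of 10193 genes were called, 9.08% as higher and 9.03% as lower (interaction of stage and population, edgeR, adjusted p under 0.01). eIF5B fell by 1.47 ± 0.19 in Raleigh and by 2.35 ± 0.56 in Zambia (mean log2 ratio and SD of 4 lines), a fitted difference of −0.88 ± 0.07 (adjusted p 2.43e-13). The lines overlap here through ZI094, which fell by 1.55. eIF6 fell by 1.26 ± 0.41 in Raleigh and by 0.17 ± 0.51 in Zambia, a difference of 1.07 ± 0.09 (adjusted p 2.20e-12), and the lines of the populations did not overlap. eIF2Bepsilon, higher in Zambia at stage 2, fell by 1.27 ± 0.28 in Raleigh and 1.76 ± 0.19 in Zambia (difference −0.48 ± 0.07, adjusted p 2.55e-06), and at stage 5 the line means of the populations overlapped. eIF1A had a mean log2 ratio of 0.12 ± 0.33 in Raleigh and −0.31 ± 0.36 in Zambia (difference −0.44 ± 0.06, adjusted p 1.65e-07), with overlapping lines. The other 4 were eIF2gamma (−0.37), eIF4H1 (0.27), eIF2Bdelta (−0.41) and eEFSec (−0.66), the last of which lost its call without RAL360 replicate 3 of stage 5 and ZI470 replicate 1 of stage 2. None of the 13 eIF3 genes was among them. With counts summed per line 2 of 10193 genes and none of the 8 were called, and the smallest adjusted p among eIF5B, eIF6 and eIF2Bepsilon was then 0.405.

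Lines within a population were compared with the 3 embryos of each line as replicates. Among the Raleigh lines at stage 2, 5 of 42 factors were called (20.4% of all genes), and among the Zambia lines 3 (16.8%). Without ZI470 replicate 1 of stage 2, 7 factors and 2655 of 7696 genes were called among the Zambia lines, so the share of all genes was then above that in Raleigh. The spread was small, with eIF3k at 121 CPM in RAL360 and 155 CPM in RAL307 (adjusted p 0.00204, edgeR), eIF2A at 212 CPM in RAL307 and 297 CPM in RAL360 (0.00253) and eIF1 at 90.7 CPM in ZI094 and 118 CPM in ZI470 (0.00273). At stage 5, 9 of 45 were called among Raleigh lines (24% of all genes) and 19 among Zambia lines (47%). Of the 9 in Raleigh 4 are subunits of eIF2B. eIF2Bdelta had 14.2 CPM in RAL360 and 30.3 in RAL517 (adjusted p 0.00108), and eIF2Balpha 18.6 CPM in RAL360 and 29.4 in RAL357 (0.000733). eIF2Bbeta and eIF2Bepsilon instead were highest in RAL360, with 54.0 and 34.5 CPM, and lowest in RAL307, with 24.4 and 18.6 CPM. Without the shallow RAL360 replicate 3, 13 factors were called among Raleigh lines at stage 5, among them all of the 9. In that fit 2654 of 10317 genes were called.

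The 19 factors that differed among Zambia lines at stage 5 hold members of each general group. eIF2D stood apart in ZI160, with 146 CPM against 71.5 to 88.8 CPM in the 3 others (adjusted p 2.48e-06, edgeR). eIF1A had 292 CPM in ZI050, 222 in ZI470, 175 in ZI094 and 158 in ZI160 (adjusted p 7.66e-06), while at stage 2 the same lines had 244 to 260.4 CPM. eIF6 had 62.1 CPM in ZI094 and 58.9 in ZI160 but 38.7 in ZI470 and 31.4 in ZI050 (adjusted p 1.16e-05). The pair of lines lowest in eIF1A was the pair highest in eIF6, but these 2 genes were picked from the 19 and a link between them was not tested. eIF4E1 ranged from 117 CPM in ZI470 to 185 in ZI160 (adjusted p 6.99e-05).

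As a description of the spread over all 8 lines, the coefficient of variation of the line means was taken for each gene. At stage 2 its median was 6.29% over the factors tested and 10.6% over all genes tested. The medians at stage 5 were 12.1% over the factors and 28.2% over all genes. The factors were not matched with all genes for level, whose part in this was not tested. At stage 2 the values ran from 2.23% for eIF4H1 to 16.2% for eIF6. At stage 5 eEF1delta was lowest with 4.64%, the highest of the general factors was eIF6 with 44.1%, and eIF5B, eIF1A and eIF2Bdelta had 38.7%, 25.9% and 31.5%.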

How the data were processed

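Single-embryo RNA was extracted with TRIzol and made into stranded mRNA libraries. Per the labels and the study's methods, the authors trimmed reads with cutadapt, aligned them with HISAT2 2.1.0 and counted them per gene with featureCounts, and deposited whole-number counts that were not normalized. The strand setting is not given in the sources used here. Of 17481 genes, 17343 matched the BDGP6.54 annotation, and the unmatched ones hold 1.13% of counts. All 48 columns were used. The 3 RAL357 columns of each stage carry the same replicate number, so these 6 columns were mapped to their group and are called a, b and c. No 2 libraries agreed within sampling noise.

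Counts were tested with edgeR 4.0.16 in R 4.3.3 (quasi-likelihood F-test, TMM scaling, filterByExpr with a minimum count of 10, Benjamini-Hochberg adjustment over all genes tested, threshold 0.01). The fits used 16 groups of line and stage for the stage contrast and its interaction with population, population alone within a stage, and line alone within a population and stage. Nothing says that embryos of a line came from separate cultures, so p-values within a line measure the spread between these embryos. Line means were compared by two-sided exact permutation over 35 splits, whose smallest p is 0.0286. Line ratios used 0.5 CPM as a pseudocount. The scripts were tested on simulated data, where of 200 genes changed 4-fold 200 were recovered for the stage contrast (1 false call), 200 between populations at stage 5 (2 false calls), 193 for the interaction (3 false calls) and 181 among Zambia lines at stage 5 (0 false calls). The simulated counts had a dispersion of 0.02 and no spread between lines beyond the changed genes. The false calls therefore do not cover line spread within a population, and recovery of changes under 4-fold was not tested. Total counts set the precision, and 3 counts were taken as the limit that a count of 0 allows, which covers counting error only.

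Alternatives were DESeq2 1.42.0, its size factors, no filter or a stricter filter of 5 CPM, a threshold of 0.05, the replicate number as a block, leaving out each embryo, leaving out both libraries that stand apart, counts summed per line, and the longest transcript as length. Named in full were the 4 general factors with the highest and the 4 with the lowest stage change, 9 factors chosen for their role, up to 4 factors with the lowest adjusted p in each other test, and every paralog. The members and lists were chosen with earlier results of these data known.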

Additional observations from a re-analysis of the deposited data

Results flagged for a closer look

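In 110 groups of 4 line means of the named factors, 2 had a line far from the 3 others, fewer than the share of about 5% that chance alone would flag. eEFSec had a line mean of 3.46 CPM in RAL360 at stage 5, with the nearest Raleigh line at 7.60 CPM and the farthest at 7.98 CPM. This mean includes the shallow RAL360 replicate 3, with 2 counts where 3 counts stand for 8.78 CPM. Replicates 1 and 2 had 59 and 51 counts, where 3 counts stand for 0.126 and 0.120 CPM. Both lie below the mean, so the shallow embryo raised it. eIF2Balpha had 17.6 CPM in RAL307 at stage 2, with the nearest Raleigh line at 21.0 CPM.

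The stage change differed between the populations in 8 factors by the interaction test (edgeR, adjusted p under 0.01), of 45 tested, while 18.1% of all genes were called. With counts summed per line 0 of the 8 were called. The difference, Zambia minus Raleigh on the log2 scale, was 1.07 for eIF6 and 0.27 for eIF4H1. It was −0.88 for eIF5B, −0.66 for eEFSec, −0.48 for eIF2Bepsilon, −0.44 for eIF1A, −0.41 for eIF2Bdelta and −0.37 for eIF2gamma.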

How the results depend on the processing

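Between the stages 41 to 46 factors were called under every alternative, against 42. eIF1A turned from −0.09 in log2 change to 0.081 with DESeq2, to 0.0785 with its size factors and to 0.00365 with the stricter filter. Between populations at stage 2 the 3 calls became 9 at an adjusted p under 0.05, 7 with DESeq2 and 0 with counts summed per line, and 2 to 5 when 1 embryo was left out, with 5 without ZI160 replicate 2. At stage 5 the 8 calls became 14 at 0.05 and 0 with counts summed per line, and 6 to 10 with 1 embryo left out. The 8 interaction calls became 14 at 0.05 and 0 with counts summed per line, and 7 to 9 with 1 embryo left out.

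Among Raleigh lines the 5 calls at stage 2 became 9 at 0.05 and 9 with DESeq2, and 2 to 5 with 1 embryo left out. The 9 at stage 5 became 19 at 0.05, and 4 (without RAL360 replicate 1) to 13 (without RAL360 replicate 3) with 1 left out. Among Zambia lines the 3 calls at stage 2 became 6 at 0.05, 7 with DESeq2 and 7 without both libraries that stand apart, and 0 (without ZI094 replicate 1) to 7 (without ZI470 replicate 1) with 1 left out. The 19 at stage 5 ranged from 15 to 22.

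With the replicate number as a block, over the 42 embryos with a number of their own, 43 factors were called by stage, 3 and 4 between populations at stages 2 and 5, 7 for the interaction, and 3 among Raleigh lines at stage 2. At stage 2 eIF4G2 was lost and eIF6 gained as lower in Zambia, at stage 5 eEF1alpha2, eEFSec, eIF2Bdelta and eIF4H1 were lost, and for the interaction eEFSec, eIF2Bdelta and eIF4H1 were lost and eIF2alpha and eIF4E1 gained. Between lines, deviations of embryos with the same number correlated above 0.1 in 16 of 63 pairs at stage 2 and 10 of 63 at stage 5. Across the stages of a line this held in 0 of 21 pairs. Between lines the median correlation was 0.031 at stage 2 and 0.010 at stage 5 (highest 0.309 and 0.302). For pairs with other numbers the medians were −0.015 and −0.005. Whether a number marks embryos handled together was not tested. With the longest transcript as length, 5 of 18 levels moved by more than the SD of the lines: eIF4A to 1451 and 2631, eIF4EHP to 76.8 and 26.7 at the 2 stages, and eIF4E1 to 1072 at stage 2. The causes of these shifts were not tested. Depth limits the paralogs near 0 and all values of RAL360 replicate 3 of stage 5.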
